A study of Mesocricetus auratus with 21 samples.

Results

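*Odf1*, *Tex101* and *Slc25a31* are 3 genes best known from germ cells of the testis, and their RNA was followed here through the growth of normal and *Mov10l1*-/- golden hamster testes. They were chosen as 1 gene for the sperm tail, 1 for the germ-cell surface and 1 for the energy supply of germ cells, and they are 3 of the 22285 genes in the count table. The *Tex101* row carries the gene's own name and rests on a RefSeq gene model. The rows of *Odf1* (ENSMAUG00000009381) and *Slc25a31* (ENSMAUG00000012426) were found through supplementary lists that pair identifiers with symbols. In the MesAur1.0 assembly *Odf1* lies on the minus strand of scaffold KB708161.1 from 13239174 to 13247240, and *Slc25a31* on the minus strand of scaffold KB708146.1 from 7745494 to 7761618. The position of *Tex101*, the exons of the 3 genes and their sequences were not used here.

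ODF1 is a protein of the outer dense fibres, the stiff rods that run along the sperm tail, and its gene is switched on in spermatids, the haploid cells that remodel into sperm. TEX101 is a GPI-anchored protein of the Ly6/uPAR family on the germ-cell surface, known in mice for the maturation of ADAM proteins that sperm need to pass into the oviduct. SLC25A31, also called ANT4, is the ADP/ATP carrier of the inner mitochondrial membrane in germ cells, and mice without it fail in meiosis. MOV10L1 is an RNA helicase needed to make piRNAs, the small RNAs that silence retrotransposons in the germ line.

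Whole testes of *Mov10l1*+/+ (wild-type, WT) and *Mov10l1*-/- (knockout, KO) hamsters were compared at 0, 9, 13 and 21 days postpartum (d.p.p.) and in adults. The KO allele lacks exon 20 of *Mov10l1* and was made by CRISPR/Cas9 in embryos, and it descends from 1 transmitting female that was crossed to outbred hamsters. Each genotype and age had 2 libraries, except WT at 9 d.p.p. with 3, which gives 21 libraries in 10 groups. In weeks of age, adult WT replicates 1 and 2 were 65 and 23, and adult KO replicates 1 and 2 were 63 and 53. Libraries of the youngest ages, 0 and 9 d.p.p., were read as single ends of 75 nt and the older ones as pairs of 150 nt, so levels were tested across ages only within a layout.

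Library totals ranged from 3550217 counts in WT replicate 2 of 13 d.p.p. to 77527451 in WT replicate 1 of 9 d.p.p. *Mov10l1* was lower in KO than in WT libraries at every age, with log2 fold changes from -10.02 to -2.703, and the difference passed the test at 4 of 5 ages (adjusted p = 0.0154 at 13 d.p.p.). The labels of the KO libraries of 9 d.p.p. hold 1 and the same animal code, so their spread may be technical. The new-born KO libraries share the first part of their codes, and each new-born WT library has another first part of its own. The labels do not give the meaning of the codes, so the source of the animals and their genotype cannot be told apart at birth. The spread of the KO libraries at birth was thus measured within the same first part. At 13 d.p.p. each WT library shares the first part of its code with the KO library of the same replicate number, and at 21 d.p.p. WT replicate 2 shares it with KO replicate 1. The summed CPM (counts scaled to library size, TMM-normalized) of 5 Sertoli cell markers ran from 625 to 848 in adult WT libraries and from 5422 to 5808 in adult KO libraries. The single Leydig cell marker with a symbol, *CYP11A1*, stood at 16.96 to 25.6 CPM in adult WT and at 585 to 739 CPM in adult KO libraries. In whole testis, fewer cells of a type and less RNA per cell cannot be told apart, and this holds for every difference below.

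In WT testes *Slc25a31* was the first of the 3 genes to reach a clear level, then *Tex101* and last *Odf1*. *Slc25a31* was already at 14.2 ± 2.53 CPM (SD, n = 2) at birth. *Tex101* stayed near 1 CPM until 13 d.p.p. and reached 64.3 ± 3.73 CPM (n = 2) at 21 d.p.p. *Odf1* remained at 0.161 ± 0.228 CPM (n = 2) at 21 d.p.p. and stood at 2171 ± 290 CPM (n = 2) in adults. In KO testes none of the 3 reached its adult WT level at any age. Because transcript lengths were not used, levels are compared within a gene and not between genes.

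**Figure D1:**
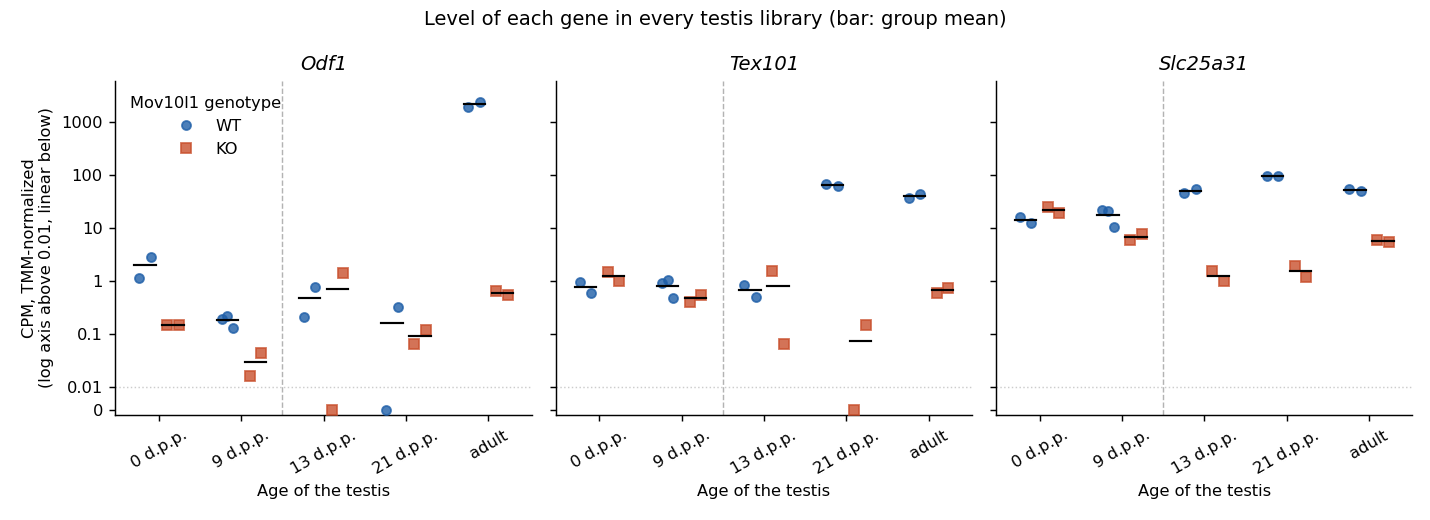
The 3 panels plot CPM (vertical axis, logarithmic above 0.01 and linear below) of *Odf1*, *Tex101* and *Slc25a31* in each of the 21 libraries by age (horizontal axis), with WT as blue circles, KO as orange squares and the group mean as a black bar; a dashed line separates the 2 read layouts. *Odf1* is high in adult WT libraries alone, *Tex101* in WT libraries of 21 d.p.p. and adults, and *Slc25a31* is lower in KO than in WT libraries from 9 d.p.p. on.

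*Odf1* reached a high level in adult WT testes and in no other group. The WT adult libraries held 1966 and 2376 CPM and the KO adult libraries 0.631 and 0.544 CPM. The genotypes did not overlap, as for 41.7% of all genes in that direction, with 100708 counts summed over the WT libraries against 36 in the KO libraries. The adult KO level was 0.0275% of WT (95% exact interval 0.0192% to 0.0380%, which covers counting error only). The log2 fold change was -12.03 (SE 0.276, adjusted p = 1.3e-07), and 209 of the 15761 genes tested had a lower one. Leaving out any 1 adult library kept it between -12.21 and -11.88. At this age 3 of the 3 genes were called lower in KO, against 37.2% of all genes tested.

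At 21 d.p.p. *Odf1* was near 0 in both genotypes. WT libraries held 0 and 0.323 CPM and KO libraries 0.0643 and 0.117 CPM, and the groups overlapped. The gene did not pass the filter on low counts there or at 13 d.p.p., so the fits of these ages hold no test of it. Without the filter the log2 fold change was -1.02 (adjusted p = 0.515), and in the joint fit of the older ages -1.04 (adjusted p = 0.599). At 13 d.p.p. the WT libraries held 0.209 and 0.758 CPM, from 2 and 3 counts. The KO libraries of 13 d.p.p. held 0 and 1.40 CPM, from 0 and 43 counts. KO replicate 2 was thus the highest of the 4 libraries and KO replicate 1 the lowest. The log2 fold change was 0.95 without the filter (adjusted p = 0.741) and 1.099 in the joint fit (adjusted p = 0.608).

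At birth *Odf1* showed a small signal that was higher in WT. The WT libraries held 1.15 and 2.83 CPM, from 83 and 86 counts, and the KO libraries 0.148 and 0.148 CPM, from 10 counts each. The KO libraries lay below the WT libraries, as for 25.9% of all genes, and the log2 fold change was -3.68 (SE 0.518, adjusted p = 0.00262). At 0 d.p.p. 1 of the 3 genes was called, against 1.93% of all genes. *Odf1* was paired with its identifier by a list of genes changed in new-born testes, so this difference is a description and supports nothing. At 9 d.p.p. the WT libraries held 0.192, 0.218 and 0.127 CPM and the KO libraries 0.0156 and 0.0434 CPM, from 1 and 3 counts. All KO values lay below all WT values, as for 21.0% of all genes, and the ratio by summed counts was 16.5% (4.26% to 45.9%). The difference did not pass the test (log2 fold change -2.52, SE 0.616, adjusted p = 0.0774).

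Low levels of *Odf1* were set beside those of 322 other genes that, like it, had at least 50 CPM in both adult WT libraries and at most 2 CPM in every library of 21 d.p.p. and of adult KO. These genes were chosen after their values were seen, and no test was made on them. In KO replicate 2 of 13 d.p.p. the median of the 322 genes was 0.0850% of their adult WT level, with 7 genes at 0 counts, and *Odf1* stood at 0.0643%. In KO replicate 1 of the same age the median was 0.0420%, with 108 genes at 0 counts, and *Odf1* stood at 0%. The 25th percentile of the 322 genes was 0.0538% in KO replicate 2 and 0% in each of the other 3 libraries of 13 d.p.p. At birth the medians were 0.0336% and 0.0559% in WT and 0.0208% and 0.0264% in KO libraries. *Odf1* stood at 0.0531% and 0.130% in those WT and at 0.00680% and 0.00683% in those KO libraries. In the new-born WT libraries 141 and 108 of the 322 genes were above *Odf1* on this scale. The part that traces of adult testis RNA had in these low values was not tested.

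**Figure D2:**
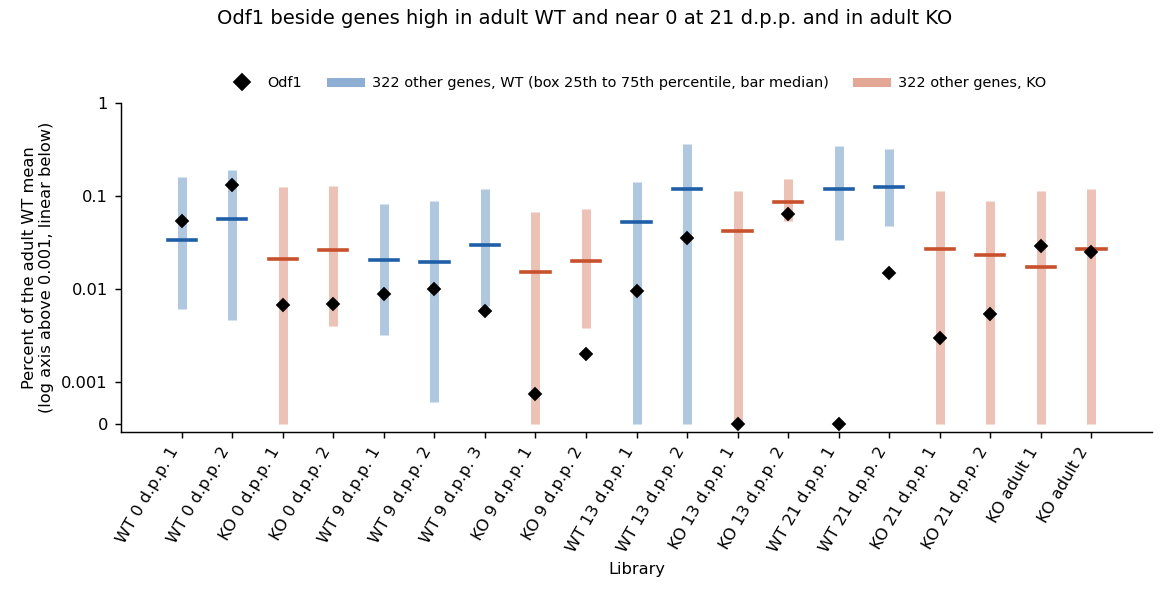
For each of the 19 libraries other than adult WT (horizontal axis), the black diamond is *Odf1* as percent of its adult WT mean and the bar with its box gives the median and the 25th to 75th percentile of 322 other genes on the same scale (vertical axis, logarithmic above 0.001 and linear below; blue WT, orange KO). KO replicate 2 is the one library of 13 d.p.p. whose box does not reach 0, running from 0.0538% to 0.152%, and *Odf1* lies within it at 0.0643%.

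*Tex101* was high in WT testes from 21 d.p.p. on and stayed at or below 1.51 CPM in every KO library. At 21 d.p.p. the WT libraries held 66.9 and 61.6 CPM and the KO libraries 0 and 0.146 CPM. The KO libraries lay below the WT libraries, as for 33.7% of all genes, and held 0 and 5 counts. The KO level was 0.158% of WT (0.0513% to 0.370%), and the log2 fold change was -9.47 (SE 0.418, adjusted p = 7.4e-06). Of the 14834 genes tested, 45 had a lower fold change. Both genes tested at this age, *Tex101* and *Slc25a31*, were called lower, against 20.9% of all genes.

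In adults *Tex101* was at 36.4 and 44.8 CPM in WT and at 0.594 and 0.744 CPM in KO libraries. The groups were again apart, as for 41.7% of all genes in that direction, and a trace remained in both KO animals, from 16 and 26 counts. The KO level was 1.72% of WT (1.23% to 2.33%), and the log2 fold change was -6.08 (SE 0.229, adjusted p = 6.1e-07).

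Before 21 d.p.p. no genotype difference of *Tex101* passed the test. New-born WT libraries held 0.959 and 0.593 CPM and KO libraries 1.46 and 1.01 CPM, so both KO values were the higher (log2 fold change 0.63, SE 0.363, adjusted p = 0.344). Such an order, all KO above all WT, was met by 25.8% of all genes at this age. At 9 d.p.p. WT libraries held 0.922, 1.03 and 0.471 CPM and KO libraries 0.405 and 0.550 CPM, which overlapped (log2 fold change -0.77, SE 0.369, adjusted p = 0.269). At 13 d.p.p. WT libraries held 0.834 and 0.506 CPM, from 8 and 2 counts, and KO libraries 1.51 and 0.0649 CPM, from 21 and 2 counts. The KO libraries enclosed the WT values, and the log2 fold change of -0.13 (SE 1.25, adjusted p = 0.973) turned to 1.003 without KO replicate 2 and to 0.32 without WT replicate 1. With such an SE a difference of a few fold was not detectable in these low counts, with the KO libraries far apart.

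*Slc25a31* was the one gene of the 3 with a clear level in new-born testes, and it fell in KO testes after birth. New-born WT libraries held 16.0 and 12.4 CPM and KO libraries 24.4 and 18.9 CPM. Both KO values were above both WT values, as for 25.8% of all genes. The log2 fold change was 0.61 (SE 0.158) and did not pass the test (adjusted p = 0.0383). It passed without KO replicate 2 (0.75, adjusted p = 0.00374), and without each of the other 3 libraries it did not. Without WT replicate 2 it was 0.45 (adjusted p = 0.312), without KO replicate 1 0.41 (adjusted p = 0.120) and without WT replicate 1 0.80 (adjusted p = 0.0109).

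At 9 d.p.p. the order had turned, with all KO values below all WT values, as for 21.0% of all genes. WT libraries held 21.4, 21.2 and 10.4 CPM and KO libraries 5.92 and 7.73 CPM, and WT replicate 3 was the lowest of its group. The KO level was 37.6% of WT (34.95% to 40.5%). The log2 fold change was -1.37 (SE 0.300, adjusted p = 0.0582), and 0 of the 3 genes were called at this age, against 0.399% of all genes (63 genes). At an unadjusted p below 0.05 the count was 3427 genes, and DESeq2 called 511. Of the 3 genes *Odf1* (0.00351) and *Slc25a31* (0.00184) had an unadjusted p below 0.05 by edgeR's quasi-likelihood test, and DESeq2 called none of them (adjusted p = 0.0377 for *Slc25a31*). Without WT replicate 3 the log2 fold change of *Slc25a31* was -1.65 and passed the test (adjusted p = 4.3e-04). With the KO libraries, which share 1 animal code, summed to 1, the adjusted p was 0.308, and without KO replicate 1 or 2 it was 0.424 or 0.237. WT replicate 3 carries the first part of its code in common with the KO animal and WT replicates 1 and 2 do not, and its 10.4 CPM lie above both KO values. *Slc25a31* was paired with its identifier by a list of genes changed at 9 d.p.p., so this difference too is a description.

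At 13 d.p.p. *Slc25a31* was at 45.8 and 54.1 CPM in WT and at 1.51 and 0.974 CPM in KO libraries, which all lay below WT, as for 19.4% of all genes. The KO level was 2.37% of WT (1.75% to 3.15%), with 51 counts against 653. The log2 fold change was -5.49 (SE 0.417, adjusted p = 0.00696). Of the 2 genes tested at this age 1 was called, against 0.121% of all genes, and 46 of the 13254 genes had a lower fold change. Leaving out any 1 library gave -5.80 to -5.13, always past the threshold. With the replicate number, which goes with the shared codes at this age, as a block, *Slc25a31* was at -5.50 (adjusted p = 1.7e-31) and *Tex101* at -0.07 (adjusted p = 0.986), and 477 genes were called in place of 16. The block leaves little information on the spread between libraries, and same-numbered libraries did not deviate together (correlation -0.00765). The gain in calls is thus no result about the shared codes.

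At 21 d.p.p. WT libraries held 97.3 and 98.1 CPM and KO libraries 1.93 and 1.17 CPM. The KO level was 1.44% of WT (1.118% to 1.83%; log2 fold change -6.27, SE 0.274, adjusted p = 7.4e-06). In adults WT libraries held 53.9 and 50.7 CPM and KO libraries 6.02 and 5.35 CPM. The KO level was 10.7% of WT (9.54% to 11.97%), from 349 counts against 2506, and the log2 fold change was -3.39 (SE 0.145, adjusted p = 1.1e-06). The counts of *Slc25a31* were whole numbers in all 21 libraries, whereas those of *Tex101* had a fraction in 6 and those of *Odf1* in 2. A fraction marks reads that map to several places or overlap another gene.

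**Figure D3:**
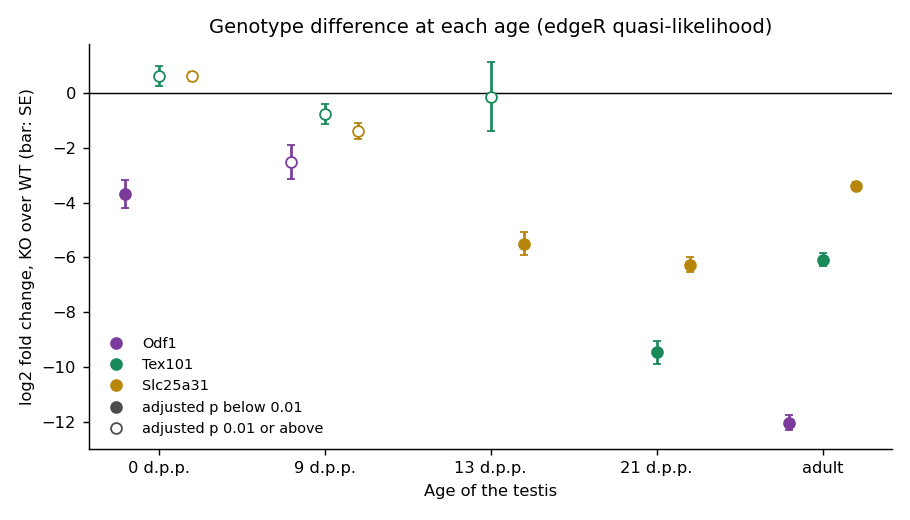
Points give the log2 fold change of KO over WT (vertical axis) of *Odf1* (purple), *Tex101* (green) and *Slc25a31* (gold) at each age (horizontal axis), with the SE as bars; filled points have an adjusted p below 0.01. *Slc25a31* runs from 0.61 at birth to -6.27 at 21 d.p.p. and -3.39 in adults, and *Odf1* has no point at 13 and 21 d.p.p., where it was below the filter on low counts.

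Ordered by level, the 10 groups of *Odf1* have adult WT at the top, apart from all others, and the next 7 overlap each with its neighbour. For *Tex101* the order begins with WT at 21 d.p.p. and adult WT, which do not overlap. The groups from KO at 0 d.p.p. down to adult KO each overlap their neighbour, and KO at 21 d.p.p. is the lowest, at 0.0732 ± 0.103 CPM (n = 2). For *Slc25a31* WT at 21 d.p.p. is the highest, adult WT and WT at 13 d.p.p. overlap, and KO at 21 and 13 d.p.p. overlap as the lowest groups. Across read layouts such an order is a description.

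The genotypes differed in the change with age for *Tex101* before 21 d.p.p. and for *Odf1* and *Slc25a31* after it. From 0 to 9 d.p.p. *Odf1* fell in WT (log2 change -3.46, SE 0.435, adjusted p = 3.5e-05), against 25.7% of all genes called lower. In KO over the same step *Tex101* (-1.41, SE 0.406, adjusted p = 0.00882) and *Slc25a31* (-1.71, SE 0.304, adjusted p = 3.8e-04) fell, against 29.6%. The call of *Tex101* was lost on leaving out any library of these ages but WT replicate 3 of 9 d.p.p., with adjusted p up to 0.0700, and when the KO libraries of the 1 animal were summed (0.0339). *Slc25a31* in WT moved by 0.25 (SE 0.271, adjusted p = 0.431). The difference between the genotypes in this step was -1.96 for *Slc25a31* (SE 0.408, adjusted p = 0.0193) and was not called, as for the other 2 genes, against 1.46% of all genes called. Without WT replicate 3 of 9 d.p.p. it was -2.23 and passed (adjusted p = 3.7e-04). The step reuses ages of the lists that gave the identifiers, birth for *Odf1* and 9 d.p.p. for *Slc25a31*. Its changes and differences for *Odf1* and *Slc25a31* are therefore descriptions.

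From 13 to 21 d.p.p. *Tex101* rose in WT by 6.47 on the log2 scale (SE 0.783, adjusted p = 1.8e-04) and *Slc25a31* by 0.998 (SE 0.234, adjusted p = 0.00883), against 6.40% of all genes called higher. The rise of *Slc25a31* lost its call on leaving out WT replicate 1 of 13 d.p.p., either WT library of 21 d.p.p. or any adult library, with adjusted p up to 0.0345, but its direction was kept each time. In KO none of the 3 changed past the threshold over this step (*Tex101* -2.53, SE 1.16, adjusted p = 0.174; *Slc25a31* 0.34, SE 0.315, adjusted p = 0.524), against 5.52% of all genes. The change of *Tex101* in KO was -3.82 and passed without KO replicate 2 of 13 d.p.p. (adjusted p = 0.00428), and without replicate 1 the change was 0.55. The genotypes differed in this step for *Tex101* (-9.001, SE 1.40, adjusted p = 0.00214), against 4.04% of all genes. That call was lost without KO replicate 1 of 13 d.p.p. (-6.01, adjusted p = 0.0638) and without KO replicate 2 of 21 d.p.p. (-12.98, adjusted p = 0.0122).

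From 21 d.p.p. to adults *Odf1* rose in WT by 13.32 (SE 0.953, adjusted p = 2.2e-07), against 23.9% of all genes called higher, and *Slc25a31* fell by 0.92 (SE 0.230, adjusted p = 0.00426), against 24.1% called lower. The fall of *Slc25a31* lost its call without any 1 of the adult, the WT 21 d.p.p. or the KO 13 d.p.p. libraries (adjusted p up to 0.0773). *Tex101* moved by -0.68 (SE 0.505, adjusted p = 0.259) in WT. In KO *Slc25a31* rose by 1.93 (SE 0.275, adjusted p = 4.3e-04), against 7.69% of all genes, and without KO replicate 2 of 21 d.p.p. the rise was 1.56 (adjusted p = 0.0130). *Odf1* (2.48, SE 1.09, adjusted p = 0.118) and *Tex101* (2.71, SE 1.07, adjusted p = 0.0845) did not pass in KO, though *Tex101* did without either KO library of 13 d.p.p. (adjusted p = 0.00629 and 0.00631). The genotypes differed in this step for *Slc25a31* (2.85, SE 0.358, adjusted p = 8.7e-05) and for *Odf1* (-10.84, SE 2.39, adjusted p = 0.00321), against 29.8% of all genes. The call of *Odf1* was lost without KO replicate 2 of 21 d.p.p. (-10.27, adjusted p = 0.144) or replicate 1 (-11.08, adjusted p = 0.0103). The steps before and after 21 d.p.p. share the libraries of that age.

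**Figure D4:**
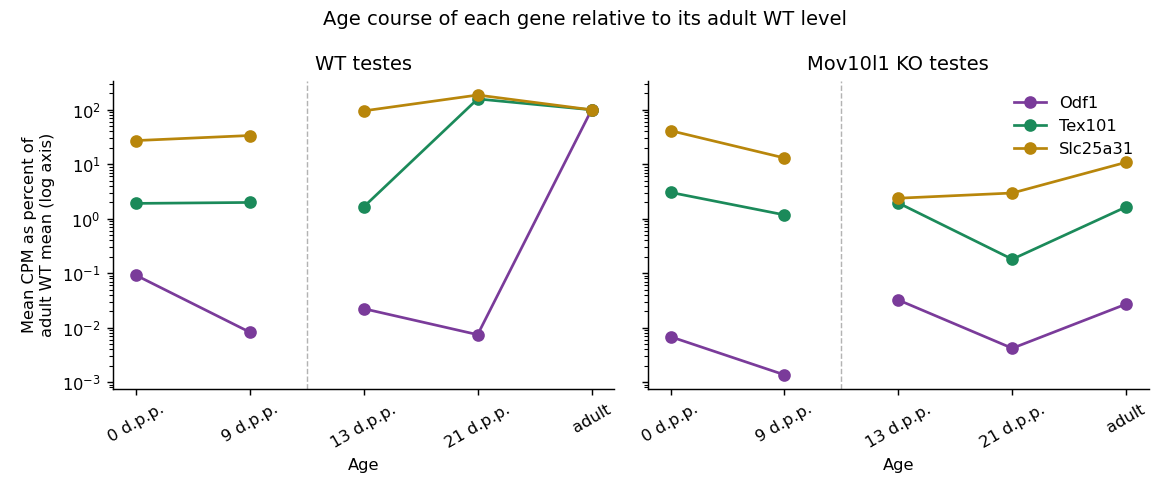
Lines give the group mean of each gene as percent of its adult WT mean (vertical axis, logarithmic) by age (horizontal axis), for WT on the left and KO on the right, with a dashed line between the read layouts. In WT at 21 d.p.p. *Slc25a31* is at 187%, *Tex101* at 158% and *Odf1* at 0.00743%, and in adult KO they are at 10.9%, 1.65% and 0.0271%.

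The residue in adult KO testes differed by gene, 10.7% of WT for *Slc25a31*, 1.72% for *Tex101* and 0.0275% for *Odf1*, and the 3 counting intervals do not overlap. Other genes, from lists of known roles, were laid beside them, each given as the adult KO mean in percent of the adult WT mean. The 10 other sperm tail and spermatid genes had a median of 0.733% and ran from 0.0811% for *Ybx2*, an RNA-binding protein that stores spermatid mRNAs, to 12.8% for *Kcnu1*, the sperm potassium channel. The 15 meiotic chromosome genes had a median of 4.49%. The 13 premeiotic germ cell genes had a median of 98.4%, from 0.755% for *Ddx4* to 1261% for *Kit*, which somatic cells of the testis also express. In adult WT these 13 ran from 1.47 to 660 CPM, and the gene at the median held 3.59 CPM in WT and 3.53 in KO. At 21 d.p.p. 11 of 14 premeiotic genes were called lower in KO and 1 higher, against 20.9% and 17.1% of all genes. *Odf1* lay below all 10 other genes of the sperm tail and spermatid list. *Tex101* lay between the medians of that list and of the meiotic list, and *Slc25a31* above the meiotic median. In WT at 21 d.p.p. the genes of the sperm tail and spermatid list ran from 1.84 CPM for *Dnah3* to 269 CPM for *Ybx2*. The study places spermatogenesis at the pachytene stage of meiosis at this age, so the list does not mark spermatids alone. Among the 322 genes described above, chosen in part for low adult KO values, the residue of *Odf1* was ordinary. In adult KO replicates 1 and 2 their medians were 0.0170% and 0.0266%, with *Odf1* at 0.0291% and 0.0250%. There 144 and 164 of them stood above *Odf1*. The 5 Sertoli cell markers had a median of 733%, from 367% for *Inhbb* to 1346% for *Inha*. The part of the changed share of somatic cells in these percentages was not tested.

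**Figure D5:**
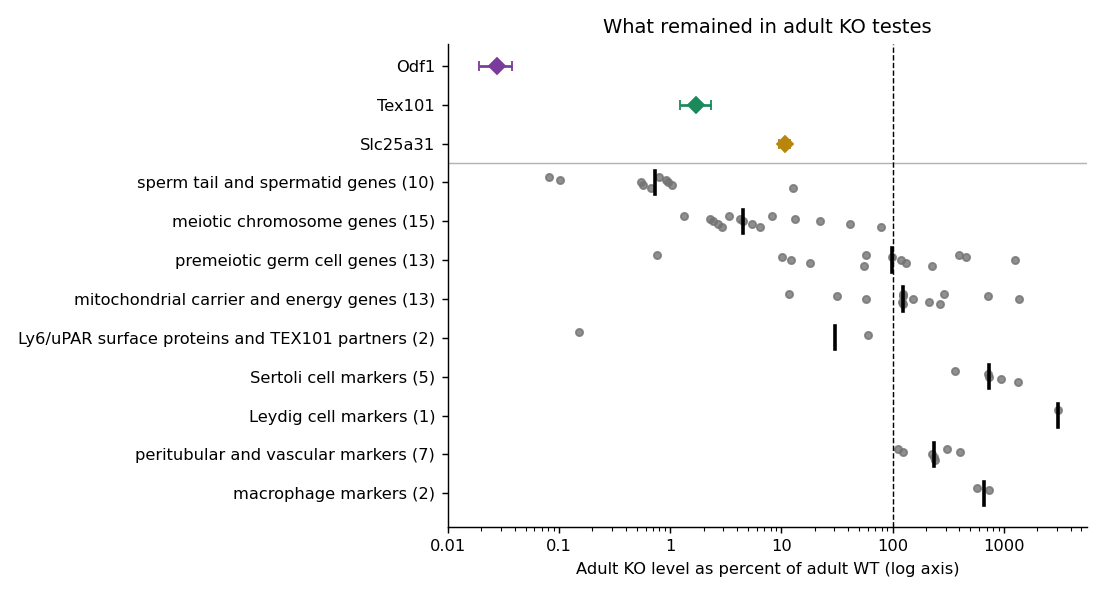
The horizontal axis (logarithmic) is the adult KO level as percent of adult WT. Diamonds with 95% exact counting intervals are *Odf1*, *Tex101* and *Slc25a31*, grey dots are single genes of each list with at least 1 CPM in adult WT (number in brackets), and black bars are list medians. The dashed line marks equal levels at 100%. The list medians run from 0.733% for the sperm tail and spermatid genes to 3109% for the single Leydig cell marker.

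Among the sperm tail and spermatid genes 10 of the 33 besides *Odf1* had an identifier. At birth 4 of the 10 were called higher in KO and 1 lower, with a median log2 fold change of 0.39 against 0.02 over all genes (1.93% of all genes called in either direction). *Ybx2* (8.90 CPM in WT, 19.7 in KO, adjusted p = 0.00213) and *Slc26a8*, an anion transporter of the sperm tail (3.96 and 8.81 CPM, adjusted p = 0.00361), were higher in KO, opposite to *Odf1*. The 1 gene called lower, in the direction of *Odf1*, was *Dnah3* (1.73 CPM in WT, 0.252 in KO, adjusted p = 0.00453). At 9 d.p.p. 2 of 10 were called lower, *Adad1* among them (13.0 CPM in WT, 5.51 in KO, adjusted p = 0.00442), against 0.342% of all genes called lower. With the KO libraries of the 1 animal summed, edgeR called 0 genes in all at 9 d.p.p. (1525 with an unadjusted p below 0.05), so the calls of *Adad1* and of every other gene at this age were then lost. At 13 d.p.p. edgeR called 0 of 9 tested, of which 5 were lower with an unadjusted p below 0.05, and 4 of the 9 were called lower with the replicate block and 3 by DESeq2. Of all 13254 genes tested 1343 had an unadjusted p below 0.05 in either direction. The block called 458 of them lower and DESeq2 307. At 21 d.p.p. 10 of 10 were called lower (median -6.82 against 0.04 over all genes, of which 20.9% were called lower), and 10 of 10 in adults (median -7.27 against 0.14, with 37.2% called lower). Unlike *Odf1*, *Ybx2* already stood at 269 CPM in WT at 21 d.p.p. and *Brdt*, a bromodomain protein of meiotic and postmeiotic cells, at 72.6 CPM. Of these 10 genes 6 have their identifiers from the list of genes changed at birth and 3 from the list of 9 d.p.p. The counts at these ages are thus not independent of the way the genes were found.

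For *Tex101*, 3 of the 13 other Ly6/uPAR proteins and TEX101 partners had an identifier. *Lypd9* was lower in KO, with 9.80 CPM in WT and 0 in KO at 21 d.p.p. (adjusted p = 1.1e-04) and 50.02 against 0.0758 CPM in adults (adjusted p = 2.4e-07). *Lypd6b* was higher in KO at 9 d.p.p. (0.790 CPM in WT, 5.44 in KO, adjusted p = 8.5e-04), a call that was lost with the KO libraries summed. *Ly6h* did not pass the test at any age, with 9.54 CPM in WT and 14.0 in KO at birth (adjusted p = 0.0349). All 3 have their identifiers from the list of genes changed at 9 d.p.p., so their values at that age are not independent of the way they were found.

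For *Slc25a31*, 13 of the 21 other mitochondrial carrier and energy genes had an identifier. At the 3 youngest ages edgeR called 0 of the 13, and with an unadjusted p below 0.05 there was 1 lower at birth, 12 higher at 9 d.p.p. but none at 13 d.p.p. Over all genes tested, 3651 of 16333, 3427 of 15776 and 1343 of 13254 had such a p in either direction at these ages. At 21 d.p.p. 6 were called higher and 1 lower (median 0.55 against 0.04 over all genes, of which 17.1% were called higher). In adults 5 were called higher and 3 lower (median 0.14, as over all genes), which is near the 37.1% and 37.2% of all genes and no result about these 13. *Mtch2*, a carrier homologue of the outer mitochondrial membrane, was lower in KO at 21 d.p.p. (226 CPM in WT, 123 in KO, adjusted p = 0.00266). *Ucp2*, an uncoupling protein, was higher (43.2 CPM in WT, 139 in KO, adjusted p = 5.3e-04). The body-wide ADP/ATP carriers *Slc25a4* and *Slc25a5* were not analysed here.

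Germ cell genes of earlier stages were laid beside *Slc25a31*. Of 15 meiotic chromosome genes edgeR called 2 higher in KO at birth, 0 at 9 or 13 d.p.p. (12 and 13 lower with an unadjusted p below 0.05), and 15 lower at 21 d.p.p., against 20.9% of all genes. At birth 1.93% of all genes were called. At 9 and 13 d.p.p. 3427 of 15776 and 1343 of 13254 genes had an unadjusted p below 0.05 in either direction. At 13 d.p.p. 13 of the 15 were called lower with the replicate block and 11 by DESeq2, against 458 and 307 of the 13254 genes tested. Their median log2 fold change went from 0.75 at birth to -1.08 at 9 d.p.p., -3.44 at 13 d.p.p., then -7.02 at 21 d.p.p., and stood at -4.67 in adults. There 14 were called lower, against 37.2% of all genes. *Sycp1*, of the synaptonemal complex, held 516 CPM in WT and 1.33 in KO at 21 d.p.p. (adjusted p = 4.9e-06) and 302 and 19.4 CPM in adults (adjusted p = 2.1e-06). Of 14 premeiotic genes 1 was called higher and 1 lower at birth, 2 lower at 9 d.p.p. and 2 lower at 13 d.p.p. At 21 d.p.p. 11 were called lower and 1 higher, and in adults 5 lower and 4 higher. Over all genes 0.342% were called lower at 9 d.p.p., and 0.121% were called in either direction at 13 d.p.p. With the replicate block 10 of the 14 were called lower at 13 d.p.p., against 458 of the 13254 genes tested. The adult shares lie near the 37.2% and 37.1% of all genes called lower and higher, and are no result about the 14 genes. *Dazl*, an RNA-binding protein of germ cells, was higher in KO at birth (55.3 CPM in WT, 97.9 in KO, adjusted p = 0.00490) and lower at 21 d.p.p. (174 and 1.69 CPM, adjusted p = 6.1e-06). *Ddx4*, an RNA helicase of germ cells, did not pass the test at birth (86.9 CPM in WT, 92.7 in KO, adjusted p = 0.769) and was lower at 9 d.p.p. (23.4 and 6.81 CPM, adjusted p = 0.00229), where the call was lost with the KO libraries summed. All 14 premeiotic, 14 of the 15 meiotic and all 13 energy genes have their identifiers from the list of genes changed at 9 d.p.p., so their values at that age are not independent of the way they were found. Beside these genes the 5 Sertoli cell markers moved the other way, with 3 called lower in KO at birth and 4 higher at 21 d.p.p. and 5 in adults, against 17.1% and 37.1% of all genes called higher. At birth 152 of the 16333 genes tested were called lower. Of these 5 markers 4 have their identifiers from the list of genes changed at birth, so their count at that age is not independent of the way they were found. *CYP11A1* was higher in KO at birth (33.1 CPM in WT, 67.1 in KO, adjusted p = 6.2e-04). The 7 peritubular and vascular markers had 1 called lower at 21 d.p.p. and 5 higher in adults, and both macrophage markers had higher levels past the threshold at 21 d.p.p. and likewise in adults. Over all genes 20.9% were called lower and 17.1% higher at 21 d.p.p., and 37.1% higher in adults.

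The genes most like each of the 3 were sought by Pearson's r of log2(CPM + 0.5) over the 21 libraries, among the 15930 genes whose mean reached 1 CPM in some group. The libraries share age, genotype and read layout, so r is a description. Names were in hand for 1031 of these genes, nearly all from lists of changed genes. For *Odf1* the closest named gene was *1700001C02Rik* (r = 0.99), and no other gene of the 15930 was closer. It held 129 CPM in adult WT and 0.0329 CPM in adult KO, and at birth 0.577 CPM in WT and 0.0148 in KO. Next among the named genes were *Dnah3*, a dynein heavy chain of cilia and sperm tails (r = 0.97), *Satl1* (0.95), *Fgf14* (0.95) and *Gm11992* (0.94). Of the 15930 genes, 408 were closer to *Odf1* than *Dnah3* and 658 were closer than *Gm11992*. *Dnah3* was at 1.73 CPM in WT and 0.252 in KO at birth, as *Odf1* the higher in WT, whereas *Satl1* was at 0.0347 and 0.784 CPM.

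For *Tex101* the closest named genes were *Hormad1*, a protein of meiotic chromosome axes (r = 0.97), *Ptchd3* (0.96), *Pbp2* (0.96), *Hsf2bp*, which acts in meiotic recombination (0.95), and *Tmem45b* (0.95). Among all genes 12 were closer than *Hormad1* and 49 closer than *Tmem45b*. *Hormad1* held 244 CPM in WT and 0.178 in KO at 21 d.p.p. and 208 and 4.76 CPM in adults. For *Slc25a31* the closest named genes were *Tfap2c*, a transcription factor of early germ cells (0.96), *Pcgf5* (0.95), *Smc1b*, the meiotic cohesin subunit (0.95), *Dazl* (0.95) and *Usp26* (0.95). Here 2 of all genes were closer than *Tfap2c* and 9 closer than *Usp26*. *Smc1b* held 111 CPM in WT and 4.71 in KO at 13 d.p.p. and 321 and 17.5 CPM in adults. Among the 3 genes themselves r was 0.71 for *Tex101* with *Slc25a31*, 0.56 for *Odf1* with *Tex101* and 0.33 for *Odf1* with *Slc25a31*.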

How the data were processed

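RNA of whole testes was depleted of rRNA and made into directional libraries. The authors aligned the reads with STAR 2.7.3a and counted them over exons of Ensembl release 99 genes of MesAur1.0 with featureCounts 2.0.0, and the deposited file holds estimated counts with fractions for reads of several places or genes, without normalization. bedtools 2.26.0 is also named in the submitters' processing notes. Fractions make the counts of near-identical or overlapping genes uncertain.

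Before any test the estimated counts were made whole by rounding, ties to the even number. No identifier matched the RefSeq table in hand, which is of another assembly, so symbols came from supplementary lists of changed genes and cover 1044 of 22285 genes, and 73 of the 149 genes of 9 lists. Genotypes were tested at each age alone with edgeR 4.0.16 (R 4.3.3), with TMM, the filter on low counts (filterByExpr) and the two-sided quasi-likelihood test. At 9 d.p.p. all 5 libraries entered. Changes with age and their difference between genotypes were tested in a joint fit per read layout (9 single-end and 12 paired-end libraries). Genes with a Benjamini-Hochberg adjusted p below 0.01 over all genes tested were called, the threshold the study used. CPM used TMM library sizes over all 21 libraries. On simulated data with 200 genes changed by 2 on the log2 scale the test called 192 at 0, 194 at 9, 117 at 13 and 183 at 21 d.p.p. and 190 in adults (16122, 15592, 12926, 14285 and 15522 genes). The interaction test called 183 from 0 to 9 d.p.p. (16361 genes), 89 from 13 to 21 d.p.p. (15760 genes) and 109 from 21 d.p.p. to adults (15729 genes). Between 0 and 4 unchanged genes were called. The simulation gave all genes of a fit the same spread, and only genes above a minimum mean count were changed. Its rates therefore do not give the power of the tests for genes with low counts or a larger spread. A count of 3 corresponded to 0.0384 to 0.759 CPM, by library. Intervals of ratios are exact (Clopper-Pearson, 95%) and cover counting error only. The labels do not say that replicates are separate animals in every case, so p-values measure the spread between these libraries.

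Named genes are the 3 genes, *Mov10l1*, the 5 named genes most like each, and up to 4 of each list with the highest mean CPM; *Kcnu1* was named after its value was seen. The members and lists were chosen with earlier results of these data known. Alternatives were DESeq2 1.42.0, RLE size factors, library totals, no filter, replicate blocks, joint fits, 2 other choices of libraries at 9 d.p.p. and leaving out each library. Levels, intervals and plots were made in Python 3.11.15 with scipy 1.17.1, pandas 2.3.3, numpy 2.4.6 and matplotlib 3.10.9.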

Additional observations from a re-analysis of the deposited data

Results flagged for a closer look

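The genotypes differed in their change with age, by the test of the interaction in the joint edgeR fit, for *Tex101* from 13 to 21 d.p.p. (difference in log2 change, KO minus WT, -9.001, adjusted p = 0.00214), for *Odf1* from 21 d.p.p. to adults (-10.84, adjusted p = 0.00321) and for *Slc25a31* from 21 d.p.p. to adults (2.85, adjusted p = 8.7e-05). The value of *Slc25a31* is positive because it fell from 97.7 to 52.3 CPM in WT and rose from 1.55 to 5.68 CPM in KO testes. Leaving out 1 library at a time kept the call of *Slc25a31* (2.46 to 3.17). The call of *Tex101* was lost without KO replicate 1 of 13 d.p.p. (adjusted p = 0.0638) or KO replicate 2 of 21 d.p.p. (0.0122), and that of *Odf1* without KO replicate 1 (0.0103) or 2 (0.144) of 21 d.p.p.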

How the results depend on the processing

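All values are log2 changes of KO over WT or of the older over the younger age, with calls at an edgeR or DESeq2 adjusted p below 0.01. For the 3 genes, leaving out 1 library kept the direction and call of 302 tested values, took a call from 28, gave one to 9 and turned the sign of 10, and the other alternatives did so for 203, 6, 14 and 5. The called differences between genotypes (*Odf1* at 0 d.p.p. and in adults, *Tex101* at 21 d.p.p. and in adults, *Slc25a31* at 13 d.p.p., 21 d.p.p. and in adults) kept direction and call under every alternative run. For *Odf1* at 0 d.p.p. this is a description, since its identifier came from the list of genes changed at that age. The untested difference of *Odf1* in mean log2(CPM + 0.5) turned from 0.285 to -0.976 without KO replicate 2 and to -0.0709 without WT replicate 1 of 13 d.p.p., and from -0.163 to 0.240 without WT replicate 2 of 21 d.p.p. Causes of the changes below were not tested.

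Without the filter on low counts, calls were gained by *Odf1* in KO from 13 to 21 d.p.p. (-3.11) and from 21 d.p.p. to adults (2.48), by *Tex101* in KO over the same steps (-2.60 and 2.698) and in the interaction of the later step (3.12), and by *Slc25a31* at birth (0.61) and in the interaction from 0 to 9 d.p.p. (-1.98). *Slc25a31* in WT from 21 d.p.p. to adults lost its call without the filter (-0.67), with DESeq2 (-0.64) and with RLE size factors (-0.64). *Tex101* at 13 d.p.p. turned to 0.0263 without the filter and to 0.0747 with DESeq2, and the interaction of *Slc25a31* from 0 to 9 d.p.p. gained a call with DESeq2 (-1.92). Library totals in place of TMM moved the median of all genes from 0.14 to 0.36 in adults, from 0.04 to -0.17 at 21 d.p.p. and from 0.00 to -0.52 for WT from 0 to 9 d.p.p. They gave *Odf1* a call in KO from 0 to 9 d.p.p. (-2.80) and *Tex101* in the interaction from 21 d.p.p. to adults (3.83), took it from *Slc25a31* in WT from 13 to 21 d.p.p. (0.88), and turned *Slc25a31* in WT from 0 to 9 d.p.p. (-0.26) and in KO from 13 to 21 d.p.p. (-0.0494). With the KO libraries of 9 d.p.p. summed, *Tex101* in KO from 0 to 9 d.p.p. lost its call (-1.40). With WT replicates 1 and 2 alone, *Slc25a31* at 9 d.p.p. gained one (-1.65).

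Same-numbered libraries did not deviate together, with correlations from -0.128 to 0.0561, and -0.00765 at 13 d.p.p., where they share the first part of their codes. With the replicate number as a block, *Slc25a31* gained calls at birth (0.62), at 9 d.p.p. (-1.65) and in the interaction from 0 to 9 d.p.p. (-2.23) and lost its call in WT from 13 to 21 d.p.p. (0.99), and *Tex101* in WT from 0 to 9 d.p.p. turned to 0.25. The block called 1394 genes at birth, 590 at 9 d.p.p., 477 at 13 d.p.p. and changed no other call of the 3 genes. At 9 d.p.p. WT replicate 3 is alone in its block and so adds nothing to the difference. There the block sets the KO libraries of 1 animal beside WT libraries whose codes have another first part. At 21 d.p.p. the libraries with a shared first part fall in different blocks.

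Over all genes, 316 were called at 0 d.p.p. (694 by DESeq2, 1321 without the filter) and 63 at 9 d.p.p. (511 by DESeq2, 230 without the filter, 583 with WT replicates 1 and 2, 131 in the joint fit). With the KO libraries of 9 d.p.p. summed edgeR called 0, and 1525 had an unadjusted p below 0.05. At 13 d.p.p. 16 were called (307 by DESeq2, 25 with RLE, 25 with library totals, 431 without the filter, 342 in the joint fit), and at 21 d.p.p. 5637 (2166 with library totals).

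Leaving out 1 library at a time gave 160 (without WT replicate 2) to 788 (without KO replicate 1) called genes at birth, 0 (without either KO library) to 583 (without WT replicate 3) at 9 d.p.p., 89 (without KO replicate 2) to 216 (without WT replicate 1) at 13 d.p.p., 2788 (without KO replicate 2) to 6219 at 21 d.p.p. and 10354 to 11570 in adults. *Odf1* ran from -3.14 to -1.76 in KO from 0 to 9 d.p.p., from -6.00 to 0.0887 in WT and from -3.73 to 3.99 in KO from 13 to 21 d.p.p., and its interactions from -3.13 to 4.76 from 13 to 21 d.p.p. and from -15.99 to -10.27 from 21 d.p.p. to adults. *Tex101* ran from -0.34 to 1.003 at 13 d.p.p., from -0.28 to 0.41 in WT and from -1.65 to -1.12 in KO from 0 to 9 d.p.p., from -6.51 to 0.55 in KO from 13 to 21 d.p.p. and from 2.16 to 6.67 in KO from 21 d.p.p. to adults, and its interactions from -12.98 to -6.01 and from 2.82 to 7.33 over these last steps. *Slc25a31* ran from 0.41 to 0.80 at 0 d.p.p., from -1.65 to -1.19 at 9 d.p.p. and from -2.23 to -1.77 in the interaction from 0 to 9 d.p.p. Its later changes ran from 0.95 to 1.21 in WT and from -0.0137 to 0.70 in KO from 13 to 21 d.p.p., and from -0.90 to -0.71 in WT and from 1.56 to 2.28 in KO from 21 d.p.p. to adults. A fit that leaves a group with 1 library assumes that this library varies like the others. *Tex101* at 13 d.p.p. and *Odf1* at 9 d.p.p. have fewer such values, since the gene then fell below the filter.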
